A study of Mus musculus with 6 samples.

Results

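Integrin subunits are the alpha and beta chains of the transmembrane receptors that hold cells to the extracellular matrix, and 10 of their genes were examined in leg muscle of mouse fetuses. The 7 alpha chain genes (*Itga1*, *Itga3*, *Itga5*, *Itga6*, *Itga7*, *Itga9* and *Itgav*) and 3 beta chain genes (*Itgb1*, *Itgb4* and *Itgb6*) were chosen by name, with earlier results of these data known. Their Ensembl identifiers were looked up in GENCODE release M21 among the 56262 genes of the count table. All 10 were found, and all 10 were among the 22071 genes that passed the filter on low counts. The 6 RNA-seq libraries came from whole leg muscle at embryonic day 18.5, 3 from wild type fetuses (WT) and 3 from fetuses with a knockout of the long noncoding RNA *SYISL* (*SYISL* KO, here KO). Fetuses were bred from parents of their own genotype, so the genotype of the fetus and that of its mother cannot be told apart. Strain, sex and litter are not given in the sources used here, and p-values measure the spread between these samples, which may share a litter.

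An integrin is a pair of 1 alpha and 1 beta chain, and the pair decides the ligand. Beta1 pairs with most of the alpha chains examined here: alpha1 binds collagen, alpha5 binds fibronectin, alpha3, alpha6 and alpha7 bind laminins, and alpha9 binds tenascin-C and other ligands. Alphav pairs with several beta chains, among them beta6, and binds proteins that carry the RGD motif, including latent TGF-beta. Beta4 pairs with alpha6 alone, and the pair is part of the hemidesmosomes that anchor basal keratinocytes of the skin to their basement membrane. In skeletal muscle, alpha7beta1 is the main laminin-binding integrin of the fibre and is concentrated at its ends, where the fibre meets the tendon. Inside the cell, talin and kindlin bind the beta tails, and ILK, PINCH and parvin link them to actin.

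The stretches upstream of the annotated starts are shown for *Itga3*, the member with the largest difference between genotypes, and for *Itgb1* and *Itga5*, the beta and alpha subunits with the highest levels per length. They come from the RefSeq promoter windows (GRCm38.p6, the assembly of mm10), which reach from 250 bases before to 50 bases after a gene's start, and only the bases upstream of both the RefSeq and the GENCODE M21 start are printed. They run 5′ to 3′ along the strand of each gene, over chr11:95076802-95076964 (minus strand, 163 bases), chr8:128685404-128685653 (plus strand, 250 bases) and chr15:103366792-103367041 (minus strand, 250 bases). Capitals mark the letters CANNTG, the E-box that MyoD family factors can bind, and GGGCGG, the GC box that Sp factors can bind, on either strand.
Itga3: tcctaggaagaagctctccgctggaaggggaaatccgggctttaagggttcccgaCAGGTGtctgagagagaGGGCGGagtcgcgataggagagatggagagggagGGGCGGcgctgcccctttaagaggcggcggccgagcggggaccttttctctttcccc
Itgb1: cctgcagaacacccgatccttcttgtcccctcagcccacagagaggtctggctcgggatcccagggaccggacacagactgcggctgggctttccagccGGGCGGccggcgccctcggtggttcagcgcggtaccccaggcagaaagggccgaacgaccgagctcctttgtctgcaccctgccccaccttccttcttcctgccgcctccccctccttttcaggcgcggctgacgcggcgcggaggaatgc
Itga5: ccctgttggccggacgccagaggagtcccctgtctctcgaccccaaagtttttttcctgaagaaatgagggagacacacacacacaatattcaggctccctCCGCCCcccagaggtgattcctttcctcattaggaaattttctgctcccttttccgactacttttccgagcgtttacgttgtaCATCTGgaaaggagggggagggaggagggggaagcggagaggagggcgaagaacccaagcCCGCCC
The *Itga3* stretch held 1 E-box and 2 GC boxes, that of *Itgb1* held 0 E-boxes and 1 GC box, and that of *Itga5* held 1 E-box and 2 GC boxes. Over the full windows, 72.3% of the 32851 windows of all genes held at least 1 E-box and 35.7% held at least 1 GC box. The full windows of these *Itga3* and *Itgb1* stretches were 66.7% and 67.3% G and C, above 85.0% and 86.2% of all windows, and that of *Itga5* was 58.7%, above 67.1%. Windows were at hand for 7 of the 10 members. These matches are letters in a window and were not set against any measure of binding.

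The libraries held 82054811 to 102233181 counts, at which 3 counts correspond to 0.0293 to 0.0366 CPM (counts scaled to a library total of 1000000). The annotation used lists no gene named *SYISL*, so its absence from the KO libraries was not checked here, and its host gene *Synpo2* stood at 131 to 139 CPM in WT and 193 to 229 CPM in KO. A gene was called higher or lower when its adjusted p was under 0.05 (quasi-likelihood test of edgeR, Benjamini-Hochberg adjusted over the 22071 genes tested) and its fold change was over 1.5. Of all genes tested, 8.31% were called higher and 8.39% lower. At an adjusted p under 0.05 of any fold, 21.9% rose and 23.1% fell. Of the 14 myofibre markers examined, 12 were called higher in KO, and their summed level was 21700 to 24180 CPM in WT and 46790 to 58080 CPM in KO. All 18 keratinocyte markers were called lower, with a summed level of 17640 to 26180 CPM in WT and 985 to 1096 CPM in KO, and *Krt2* had no count in the KO libraries. Of the markers of other cells, 8 of 8 red blood cell genes and 6 of 10 chondrocyte genes were called lower, and 7 of 9 macrophage genes were called higher. Endothelial (10), fibroblast (10) and smooth muscle and pericyte (9) markers had 0, 1 and 1 genes called higher and 0, 0 and 0 called lower by edgeR, with 8, 6 and 5 genes higher and 0, 0 and 1 lower at an adjusted p under 0.05 of any fold. Without WT replicate 1 or KO replicate 1, 1 endothelial and 2 fibroblast genes were called higher. The summed levels of these lists were 1.17, 1.15 and 1.09 times as high in KO. Myoblast and satellite cell markers had 1 of 9 called lower, *Pax3*, and 4 lower and 1 higher at an adjusted p under 0.05 of any fold. The called count was 0 without WT replicate 2 or KO replicate 3 and 2 without KO replicate 2. Schwann cell markers had 1 of 8 called higher, or 2 without KO replicate 1, and 2 called lower. The samples are whole tissue, in which fewer cells of a type and less RNA per cell cannot be told apart, and the part of these cell types in the integrin values below was not tested.

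Most integrin subunit genes were moderately higher in KO fetuses, while *Itga3* and *Itgb4* were lower. Of these genes, 1 of the 10 members was called lower, *Itga3*, against 8.39% of all genes tested, and 0 were called higher, against 8.31%. DESeq2, limma-voom and an unadjusted p under 0.05 with the same fold also called 0 higher. Without the fold threshold, 7 members rose, against 21.9% of all genes tested, and 2 fell, against 23.1%. The members had mean levels above those of 55.4% to 99.5% of all genes tested, and these shares were not matched for level. The values of the 3 WT and the 3 KO samples did not overlap in any of the 10 members, 8 being higher in KO and 2 lower, where 27.3% of all genes tested had no overlap with KO higher and 28.5% had none with KO lower. The median log2 fold change was 0.24 over the 7 alpha chains and 0.21 over the 3 beta chains, beside -0.0041 over all genes tested. With library size alone as scaling these medians were 0.18 and 0.14, beside -0.073.

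**Figure D1:**
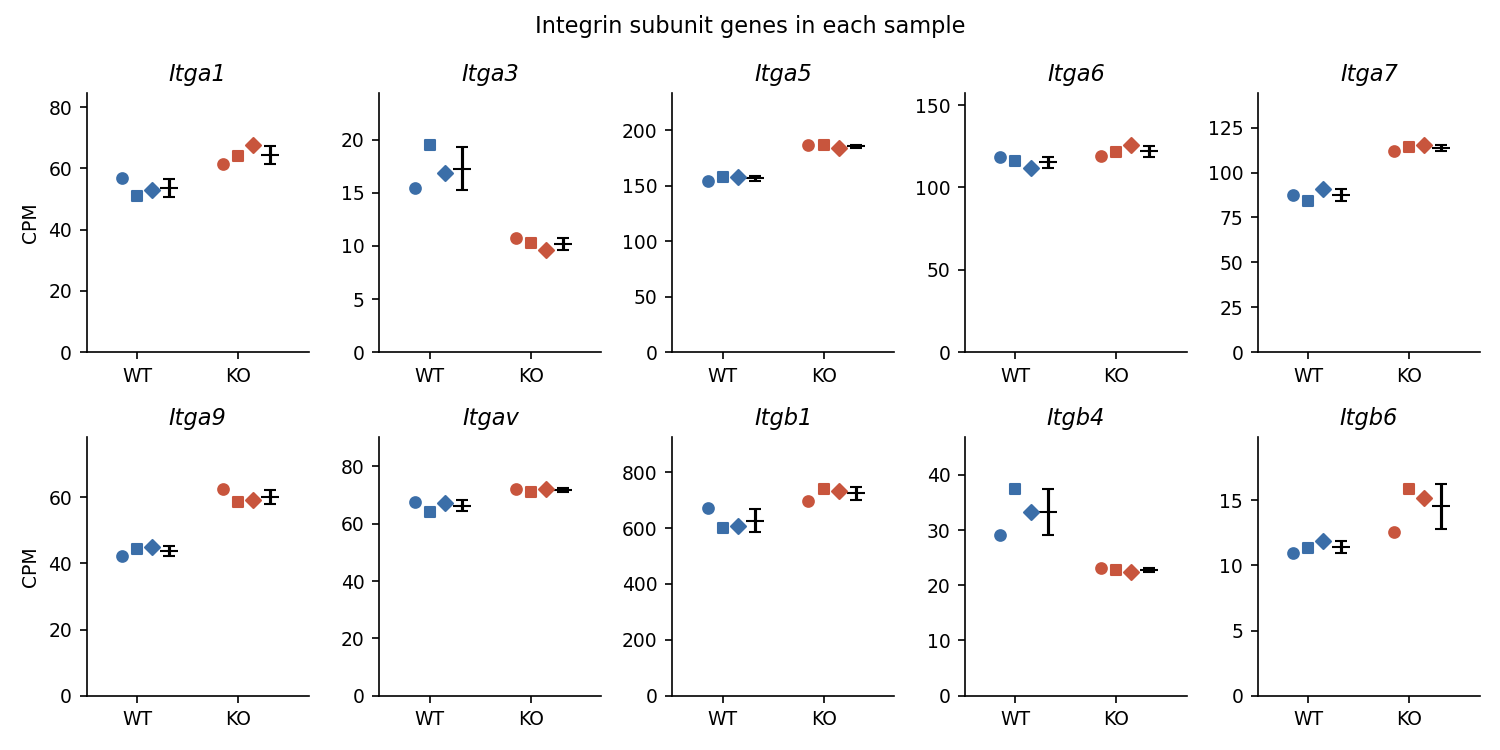
Level of each integrin subunit gene in CPM (y axis, from 0, scaled per gene) in the 3 WT samples (blue) and the 3 KO samples (red), with circles, squares and diamonds for replicates 1, 2 and 3 and black marks for the mean ± SD. Itga3 and Itgb4 lie lower in KO, and Itga7 and Itga9 lie higher with a wide gap, whereas WT and KO nearly touch for Itga6 and Itgb1.

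*Itgb1* and *Itga5*, the chains of the fibronectin receptor, both rose. *Itgb1* (ENSMUSG00000025809.15, chr8:128685654-128733200, plus strand) stood at 673, 601 and 606 CPM in WT and 697, 741 and 734 CPM in KO. The highest WT sample lay just below the lowest KO sample. The log2 fold change, 0.21 ± 0.059 (SE), passed the test (adjusted p = 0.0178, edgeR), and 99.5% of all genes tested had a lower mean level. It passed in 8 of 14 other settings, and leaving out WT replicate 2 or 3 or KO replicate 2 or 3 gave an adjusted p of 0.0579 to 0.0841. *Itga5* (ENSMUSG00000000555.8, chr15:103344286-103366763, minus strand) was tighter, at 154, 158 and 158 CPM in WT and 186, 186 and 184 CPM in KO. Its log2 fold change was 0.24 ± 0.036 (SE; edgeR, adjusted p = 4.72e-04), a 1.18-fold difference. It passed in all 14 other settings. *Fn1*, which encodes fibronectin, rose by a log2 fold change of 0.28 (adjusted p = 0.0077, edgeR).

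Among the laminin-binding chains of muscle, *Itga7* rose and *Itga6* did not pass the test. *Itga7* (ENSMUSG00000025348.9, chr10:128933818-128958282, plus strand) stood at 87.5, 84.2 and 91.0 CPM in WT and at 112, 114 and 115 CPM in KO. No KO sample came near the WT range. The log2 fold change was 0.38 ± 0.040 (SE; edgeR, adjusted p = 5.55e-05), or 1.30-fold, and lay between 0.31 and 0.45 over the 14 other settings. *Itga6* (ENSMUSG00000027111.16, chr2:71745616-71858416, plus strand) stood at 118, 116 and 112 CPM in WT and at 119, 121 and 126 CPM in KO. The highest WT value, 118.2 CPM, and the lowest KO value, 118.8 CPM, almost met. Its log2 fold change was 0.079 ± 0.040 (SE; edgeR, adjusted p = 0.143), and it passed in 1 of 14 other settings. A ratio within each sample sets aside the scaling of the libraries. The log2 ratio of *Itga6* to *Itga7* per length was 0.28, 0.31 and 0.14 in WT and -0.072, -0.072 and -0.033 in KO, so on exon lengths *Itga6* was above *Itga7* in every WT sample and slightly below it in every KO sample. With the length of the longest transcript, an alternative chosen after the data were seen, the KO ratios were -0.015, -0.015 and 0.024, so that the order within KO depended on the length used, whereas the difference between genotypes did not. The difference of KO from WT was -0.30 (exact permutation test, two-sided, p = 0.1, below which 3 against 3 samples cannot go, and p = 0.167 adjusted over 5 ratios).

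The collagen, tenascin and RGD receptors made up the rest of the rises. *Itga9* (ENSMUSG00000039115.13, chr9:118606690-118901003, plus strand) had the largest rise of the 10, from 42.2, 44.4 and 45.0 CPM in WT to 62.6, 58.6 and 59.2 CPM in KO. Its log2 fold change, 0.46 ± 0.043 (SE; edgeR, adjusted p = 2.49e-05), corresponds to 1.37-fold, under the 1.5-fold threshold. *Tnc*, which encodes the alpha9 ligand tenascin-C, had a log2 fold change of 0.57 (adjusted p = 1.23e-05, edgeR) and is named beside it after its values were seen. *Itga1* (ENSMUSG00000042284.10, chr13:114953096-115101964, minus strand) stood at 57.0, 51.1 and 53.0 CPM in WT and 61.6, 64.0 and 67.6 CPM in KO. The log2 fold change was 0.26 ± 0.051 (SE; edgeR, adjusted p = 0.0026).

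*Itgav* and its partner *Itgb6* both rose, and the ratio between them was not shown to differ between genotypes. *Itgav* (ENSMUSG00000027087.11, chr2:83724397-83806916, plus strand) stood at 67.7, 64.0 and 67.1 CPM in WT and 72.2, 71.1 and 72.0 CPM in KO. Its log2 fold change was 0.12 ± 0.036 (SE; edgeR, adjusted p = 0.0284). It was the smallest of the 7 rises and passed in 6 of 14 other settings. Leaving out WT replicate 2 or 3 or KO replicate 2 or 3 raised its adjusted p to between 0.0629 and 0.109. *Itgb6* (ENSMUSG00000026971.15, chr2:60598292-60722643, minus strand) was the lowest of the members per length, at 11.0, 11.4 and 11.9 CPM in WT and 12.5, 15.9 and 15.1 CPM in KO. KO replicate 1 lay closer to the WT samples than to the other KO samples. Its log2 fold change was 0.35 ± 0.089 (SE; edgeR, adjusted p = 0.0104), and 0.45 without that sample. The log2 ratio of *Itgb6* to *Itgav* was higher in KO by 0.23 (exact permutation test, p = 0.3), and the WT and KO ratios overlapped.

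*Itga3* and *Itgb4*, both subunits of laminin receptors of epithelia, fell. *Itga3* (ENSMUSG00000001507.16, chr11:95044474-95076801, minus strand) stood at 15.5, 19.5 and 16.8 CPM in WT and at 10.7, 10.3 and 9.60 CPM in KO. Every KO sample lay below every WT sample, and the WT samples were spread more widely (SD 2.03 CPM) than the KO samples (SD 0.568 CPM). The log2 fold change was -0.76 ± 0.088 (SE; edgeR, adjusted p = 1.04e-04), so WT was 1.69 times as high as KO. Of the absolute log2 fold changes of all genes tested, 86.2% were smaller. *Itga3* was called in all 14 other settings, with log2 fold changes from -0.83 to -0.67. *Itgb4* (ENSMUSG00000020758.15, chr11:115974709-116008412, plus strand) stood at 29.1, 37.5 and 33.2 CPM in WT and at 23.1, 22.8 and 22.5 CPM in KO. The groups did not overlap, and the KO samples were nearly equal. Its log2 fold change, -0.54 ± 0.081 (SE; edgeR, adjusted p = 4.99e-04), missed the 1.5-fold threshold. It passed the threshold with library size alone as scaling (-0.61) and without WT replicate 1 (-0.63).

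Keratinocyte markers were lower in KO, as these 2 genes were, but by more, and most had the same order among the WT samples. Of the 18 keratinocyte markers, 16 had their maximum within WT in replicate 2 and their minimum in replicate 1. *Itga3* and *Itgb4* had the same order, which 5636 of the 22071 genes tested showed. Of other markers, 5 of 9 for myoblasts and satellite cells, 4 of 8 for Schwann cells and 4 of 10 for fibroblasts had it too. So did 1 of 10 for endothelium, 1 of 9 for smooth muscle and pericytes and 1 of 9 for macrophages. None did among those for myofibres (0 of 14), chondrocytes (0 of 10) and red blood cells (0 of 8). Between genotypes the keratinocyte markers had a median log2 fold change of -4.10, against -0.76 and -0.54 for *Itga3* and *Itgb4*. *Itgb4* over the summed CPM of the keratinocyte markers, in log2, came to -9.25, -9.45 and -9.20 in WT and -5.41, -5.59 and -5.55 in KO, and for *Itga3* over the same sum the difference of KO from WT was 3.56 (exact permutation test, p = 0.1). In WT that sum was carried by *Krt1* and *Krt10*, keratins of the suprabasal layers, with means of 9575 and 5837 CPM. Their log2 fold changes were -5.47 and -6.20. In KO their means were 215.5 and 79.3 CPM, beside 257.3 CPM for *Krt5* and 233.4 CPM for *Flg*. The basal markers *Krt5*, *Krt14*, *Krt15* and *Trp63* had log2 fold changes of -1.96, -2.59, -3.445 and -1.35, so the size of these ratios depends on the layer that the markers stand for. Both genes fell by less than each of the 18 keratinocyte markers, and the part of these cells in their fall was not tested. The same comparison was made for the muscle chains. Against the summed myofibre markers, the log2 level of *Itga7* was -8.11, -8.01 and -8.02 in WT and -8.71, -8.99 and -8.96 in KO, a difference of -0.84, and that of *Itgb1* differed by -1.01 (exact permutation test, p = 0.1 for both). The rise of *Itga7* in CPM was smaller than the median log2 fold change of the myofibre markers, 1.29. *Acta1* and *Myh8* had the highest means of these markers in KO, 12500 and 14160 CPM, with log2 fold changes of 1.47 and 1.59. The lowest log2 fold changes were those of *Actn2*, *Ryr1* and *Myh3*, 0.70, 0.52 and -0.040. The size of the *Itga7* and *Itgb1* ratios thus depends on the myofibre markers taken. These 4 ratios were chosen after the data were seen.

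**Figure D2:**
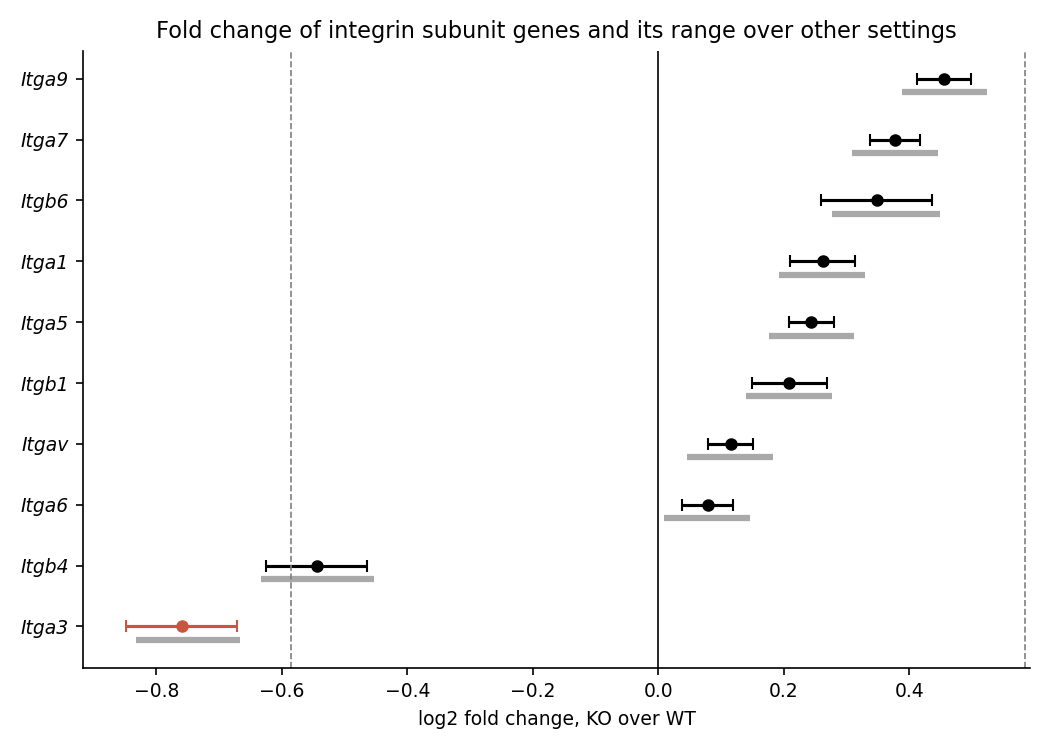
Log2 fold change of KO over WT for each integrin subunit gene (points with standard error, edgeR, 3 samples per genotype; red for the called gene), with the range over 14 other settings as a grey bar and the 1.5-fold threshold as dashed lines. Itga3 lies beyond the threshold at -0.76 over its whole range, the bar of Itgb4 crosses it, and the 8 other genes stay between 0.0098 and 0.52 in every setting.

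Levels were compared between genes per kilobase of exon. *Itgb1* was the highest of all 27 integrin subunit genes, at 154 ± 9.83 CPM per kb in WT and 177 ± 5.73 CPM per kb in KO (SD, n = 3). Among the 10, *Itga5* followed with 31.8 ± 0.456 and 37.6 ± 0.258 CPM per kb. *Itga6* stood at 12.8 ± 0.370 and 13.5 ± 0.382, and *Itga7* at 10.8 ± 0.423 and 14.1 ± 0.202 CPM per kb. Then came *Itgav* (6.17 ± 0.181 and 6.68 ± 0.0549), *Itga9* (5.71 ± 0.194 and 7.82 ± 0.278), *Itgb4* (4.14 to 5.34 over the WT samples and 3.20 to 3.30 over the KO samples), *Itga3* (3.02 ± 0.355 and 1.79 ± 0.0992), *Itga1* (2.89 ± 0.160 and 3.46 ± 0.163) and *Itgb6* (1.60 ± 0.0636 and 2.04 ± 0.247 CPM per kb). Between neighbours in this order, the WT ranges overlapped for *Itga3* and *Itga1* and for no other pair. In KO the order turned for *Itgav* and *Itga9* and for *Itga3* and *Itga1*, without overlap of their ranges, and the ranges of *Itga6* and *Itga7* overlapped. Both turns depended on the length used. With the longest transcript, *Itgav* held more of the summed alpha level than *Itga9* in WT (8.685% and 5.78%) and in KO (8.12% and 6.84%). *Itga1* was then already above *Itga3* in WT (4.53% and 3.285%).

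**Figure D3:**
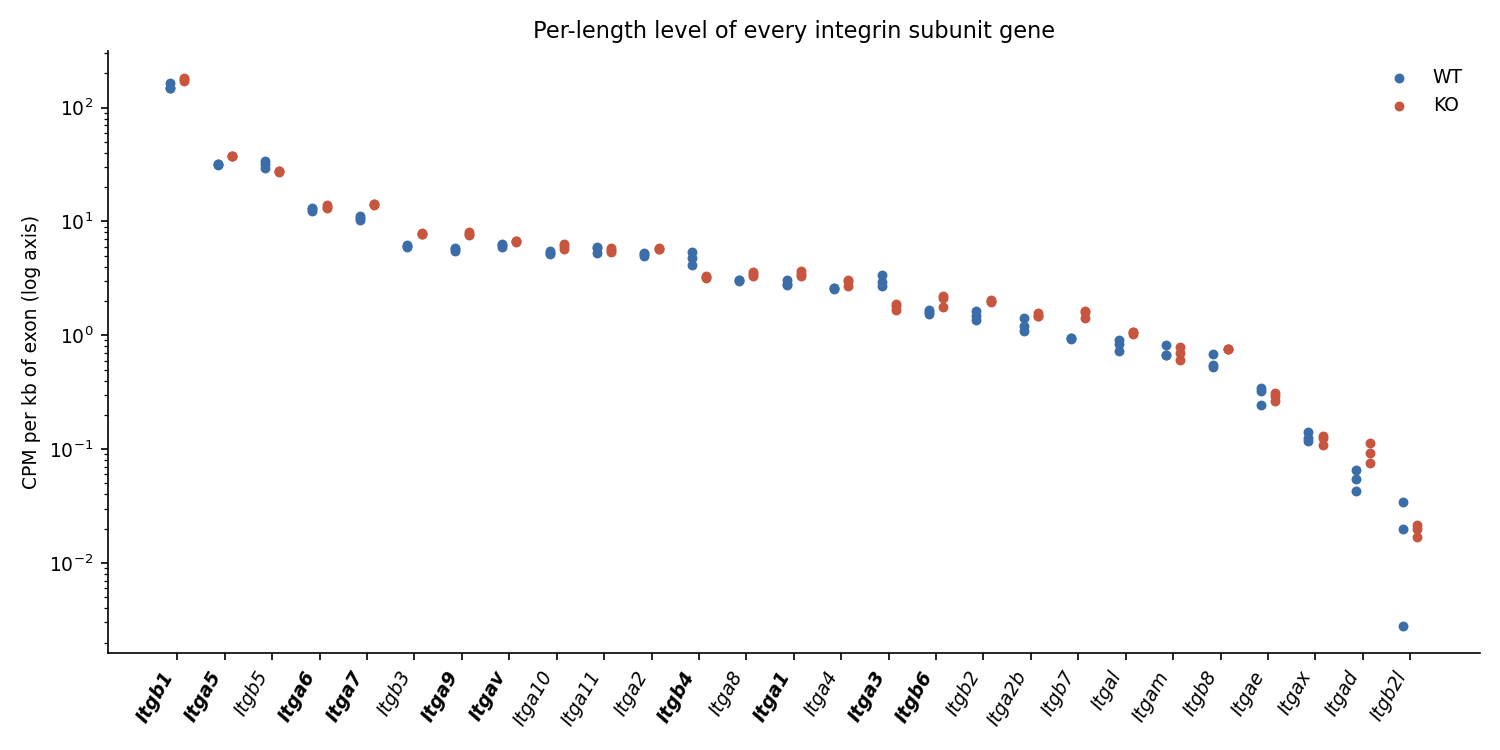
Level per kilobase of exon (CPM per kb, log axis) of all 27 integrin subunit genes in each WT (blue) and KO (red) sample, ordered by the mean over the 6 samples, with the 10 genes examined in bold. Itgb1 is above 147 CPM per kb in every sample, and Itga5 lies between 31.2 and 37.8 CPM per kb.

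Within the alpha chains, *Itga3*, *Itga6* and *Itgav* held smaller shares in every KO sample than in any WT sample. *Itga5*, *Itga7* and *Itga9* held larger ones. The share is the level per kilobase of 1 alpha gene in the summed level of the 7 alpha genes of a sample. *Itga5* held 43.4% ± 0.406 of the sum in WT and 44.3% ± 0.421 in KO (SD, n = 3). The size of a share depends on the length used, and with the longest transcript *Itga5* held 32.8% and 33.5%. *Itga3* held 3.73%, 4.66% and 4.01% of the sum in WT and 2.22%, 2.12% and 1.97% in KO. Its share differed by -2.03 percentage points, and the groups did not overlap. *Itga6* went from 18.0%, 17.6% and 16.8% to 15.5%, 15.8% and 16.3%, a difference of -1.58 points. *Itga7* went from 14.9%, 14.2% and 15.3% to 16.3%, 16.7% and 16.7%, a difference of 1.77 points. The differences were 1.41 points for *Itga9* and -0.565 points for *Itgav*, whereas the share of *Itga1* overlapped between genotypes (3.95% ± 0.237 and 4.08% ± 0.183). In exact permutation tests, 6 of the 7 shares reached p = 0.1, the smallest p the design allows, and *Itga1* gave p = 0.5, so no share could pass 0.05. Shares of a sum are not independent of each other.

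**Figure D4:**
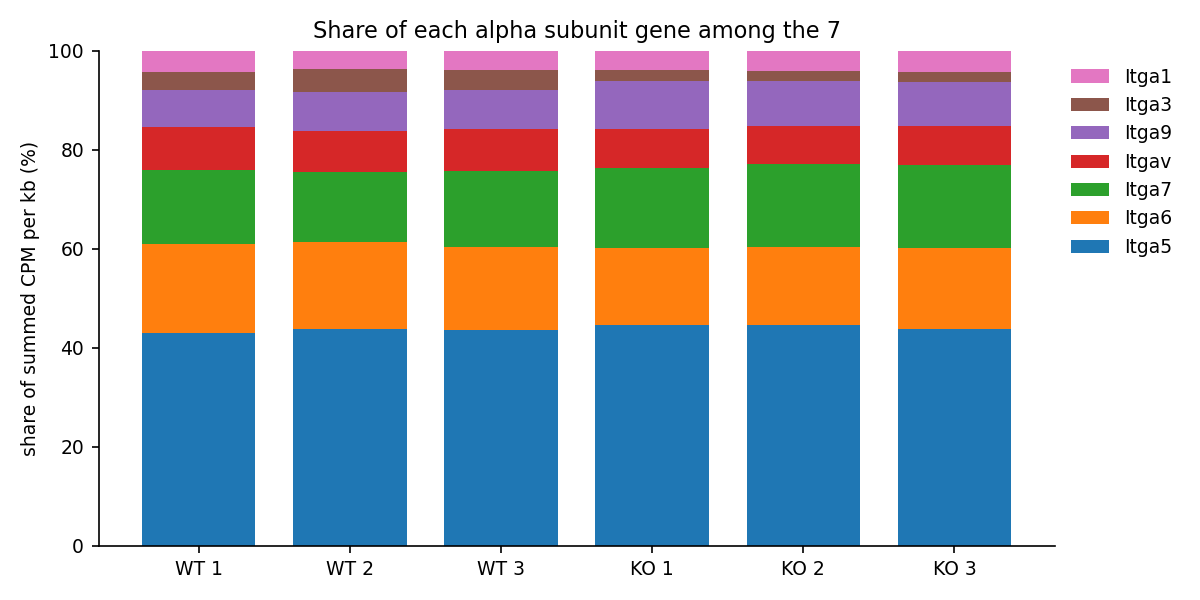
Share of each of the 7 alpha chain genes in their summed level per kilobase of exon (%, stacked to 100) in each sample. Itga5 takes 43.0% to 44.5% in every sample, and the Itga3 band is thinner in the KO samples.

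Ratios within a sample set chains that pair with each other, or that share a partner or ligand, side by side. The log2 ratio of *Itgb4* to *Itgb1* per length was -5.31, -4.79 and -4.97 in WT and -5.70, -5.81 and -5.81 in KO, a difference of -0.75 without overlap. That of *Itga7* to *Itgb1* was -3.93, -3.83 and -3.72 in WT and -3.63, -3.69 and -3.66 in KO, a difference of 0.17. Both gave the smallest p that the exact permutation test allows here (p = 0.1, adjusted p = 0.167 over the 5 ratios). *Itga5* and *Itgb1* kept nearly the same ratio, with a difference of 0.034 (SD 0.112 in WT and 0.0522 in KO; exact permutation test, p = 0.8).

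Of the 17 other integrin subunit genes, 16 could be tested and *Itgb2l* was too low. By edgeR, 2 were called higher and 0 lower, against 8.31% and 8.39% of all genes tested. At an adjusted p under 0.05 of any fold, 11 rose and 1 fell, against 21.9% and 23.1%. DESeq2 and limma-voom called 1 and 2 higher and 0 lower. *Itgb7*, a beta chain of lymphocytes, stood at 2.64, 2.63 and 2.55 CPM in WT and 4.48, 4.40 and 3.97 CPM in KO (log2 fold change 0.72, adjusted p = 9.82e-05, edgeR). *Itgad*, an alpha chain of leukocytes, was low, with 0.245 ± 0.0511 and 0.425 ± 0.0864 CPM (SD, n = 3) and a log2 fold change of 0.78 (adjusted p = 0.0237, edgeR). Its call was lost without WT replicate 2 or 3 or KO replicate 2 or 3, which left 1 called. The 2 other beta partners of alphav with high levels went opposite ways. *Itgb5* fell from 105, 120 and 114 CPM in WT to 97.9, 99.4 and 96.0 CPM in KO (log2 fold change -0.21, adjusted p = 0.0068, edgeR), and *Itgb3* rose from 35.5, 36.5 and 35.8 CPM to 46.2, 45.9 and 46.4 CPM (log2 fold change 0.36, adjusted p = 3.02e-05, edgeR). The median of the 16 genes was 0.18.

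The ligand genes moved in both directions. For comparison, 8.31% of all genes tested were called higher and 8.39% lower. At an adjusted p under 0.05 of any fold, 21.9% rose and 23.1% fell. Of 10 laminin chain genes examined, 2 were called higher and 2 lower, and 6 rose and 3 fell at an adjusted p under 0.05, with a median log2 fold change of 0.24. *Lama2*, the alpha chain of the muscle basement membrane, stood at 91.4, 91.2 and 93.3 CPM in WT and 137, 145 and 148 CPM in KO (log2 fold change 0.64, adjusted p = 1.99e-06, edgeR). *Lamc1* and *Lamb1*, the gamma and beta chains that assemble with it, rose by log2 fold changes of 0.33 and 0.28. *Lamb3*, a beta chain of epithelial basement membranes, fell by 1.02 on the log2 scale. *Lama3*, an alpha chain of epithelial basement membranes, fell by 0.50 and was not called. *Lama1*, a laminin chain of early embryos, fell by 1.10 at a level of 2.04 ± 0.116 CPM in WT (SD, n = 3), and *Lamc3* had the largest rise of the list, 1.62, from 4.82 ± 0.588 to 14.8 ± 2.72 CPM. Of 11 collagen genes, 0 were called higher and 1 lower by edgeR, DESeq2 and limma-voom, and 8 rose and 2 fell without the fold threshold, as at an unadjusted p under 0.05 (median log2 fold change 0.26). The called gene was *Col4a6*, a basement membrane chain, with a log2 fold change of -1.13. *Col1a2* had a log2 fold change of 0.22 (adjusted p = 0.0338, edgeR) and *Col1a1* of 0.16 (adjusted p = 0.15, edgeR). Of 18 genes for RGD proteins and other ligands, edgeR, DESeq2 and limma-voom called 0, and 8 rose and 1 fell without the fold threshold, as at an unadjusted p under 0.05 (median log2 fold change 0.12). Without WT replicate 3 or KO replicate 1, 1 was called higher. *Postn*, which encodes periostin, rose from 3929, 3617 and 3790 CPM to 4684, 4830 and 4873 CPM (log2 fold change 0.34, adjusted p = 0.0021, edgeR).

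Cytoplasmic partners of the beta tails rose in part. Of 17 talin, kindlin and ILK-complex genes, 2 were called higher and 1 lower, against 8.31% and 8.39% of all genes tested. At an adjusted p under 0.05, 12 rose and 1 fell, against 21.9% and 23.1%, around a median log2 fold change of 0.18. *Itgb1bp2*, which encodes melusin, a muscle protein that binds the beta1 tail, stood at 300, 265 and 291 CPM in WT and 428, 527 and 492 CPM in KO (log2 fold change 0.76, adjusted p = 5.10e-05, edgeR). *Lims2*, which encodes PINCH2, rose from 5.36 ± 0.275 to 11.0 ± 0.585 CPM (SD, n = 3; log2 fold change 1.04). The kindlins went in both directions. *Fermt1*, the kindlin of epithelia, fell from 4.58 ± 0.479 to 1.42 ± 0.194 CPM (SD, n = 3; log2 fold change -1.69, adjusted p = 4.88e-06, edgeR), and *Fermt2*, the widely expressed kindlin, rose from 276 ± 11.6 to 356 ± 21.9 CPM (SD, n = 3; log2 fold change 0.36, adjusted p = 6.88e-04, edgeR). *Tln1*, which encodes talin 1, rose by 0.18.

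Of 20 focal adhesion signalling and actin-linking genes, 1 was called in each direction, against 8.31% of all genes tested called higher and 8.39% lower. At an adjusted p under 0.05, 7 rose and 2 fell, against 21.9% and 23.1%, with a median log2 fold change of 0.042. *Nrap*, a protein of the fibre ends and of growing myofibrils, stood at 123, 119 and 129 CPM in WT and 331, 354 and 370 CPM in KO (log2 fold change 1.51, adjusted p = 8.89e-08, edgeR). *Tns4*, a tensin of epithelia, fell from 4.01, 7.20 and 5.06 CPM to 1.28, 1.56 and 1.32 CPM (log2 fold change -1.96, adjusted p = 4.80e-05, edgeR). *Flnc*, the muscle filamin, rose by 0.46, whereas *Flna* stood at 553 ± 12.1 and 582 ± 13.2 CPM (SD, n = 3; adjusted p = 0.239, edgeR).

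The partners of alpha6beta4 in the hemidesmosome did not move as a block. *Col17a1*, the transmembrane collagen of the hemidesmosome, fell from 81.6, 107 and 90.9 CPM in WT to 28.3, 28.5 and 28.7 CPM in KO (log2 fold change -1.71, adjusted p = 4.44e-07, edgeR). *Plec* and *Dst*, plakins with muscle as well as epithelial forms, rose by 0.30 and 0.22, and the tetraspanin gene *Cd151* rose by 0.44. Of the 4 genes, 1 was called lower and 0 higher by edgeR, DESeq2 and limma-voom. Over all genes tested, edgeR called 8.39% lower and 8.31% higher. At an unadjusted p under 0.05, 3 of the 4 were higher. The median log2 fold change over the 4 genes was 0.26.

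The linkers of fibre ends and membrane rose together. All 8 genes of that list rose at an adjusted p under 0.05, against 21.9% of all genes tested, and 6 were called higher, against 8.31%. Their median log2 fold change was 0.71. *Ankrd1*, a mechanically regulated protein of the sarcomere, rose by 0.92, *Ldb3* of the Z-disc by 0.83, *Csrp3* by 0.81 and *Sgca*, the alpha-sarcoglycan gene, by 0.74 on the log2 scale. *Dmd* and *Thbs4* were also called. *Dag1*, the gene of the laminin receptor dystroglycan, stood at 371, 388 and 389 CPM in WT and 455, 471 and 495 CPM in KO (log2 fold change 0.31, adjusted p = 8.59e-04, edgeR), and *Col22a1*, a collagen of the myotendinous junction, rose by 0.33. The called genes of this list, all higher, lie beside a myofibre marker sum that was 2.33 times as high in KO. Of the called laminin genes, 2 were higher and 2 lower. The part of myofibres in these values was not tested.

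**Figure D5:**
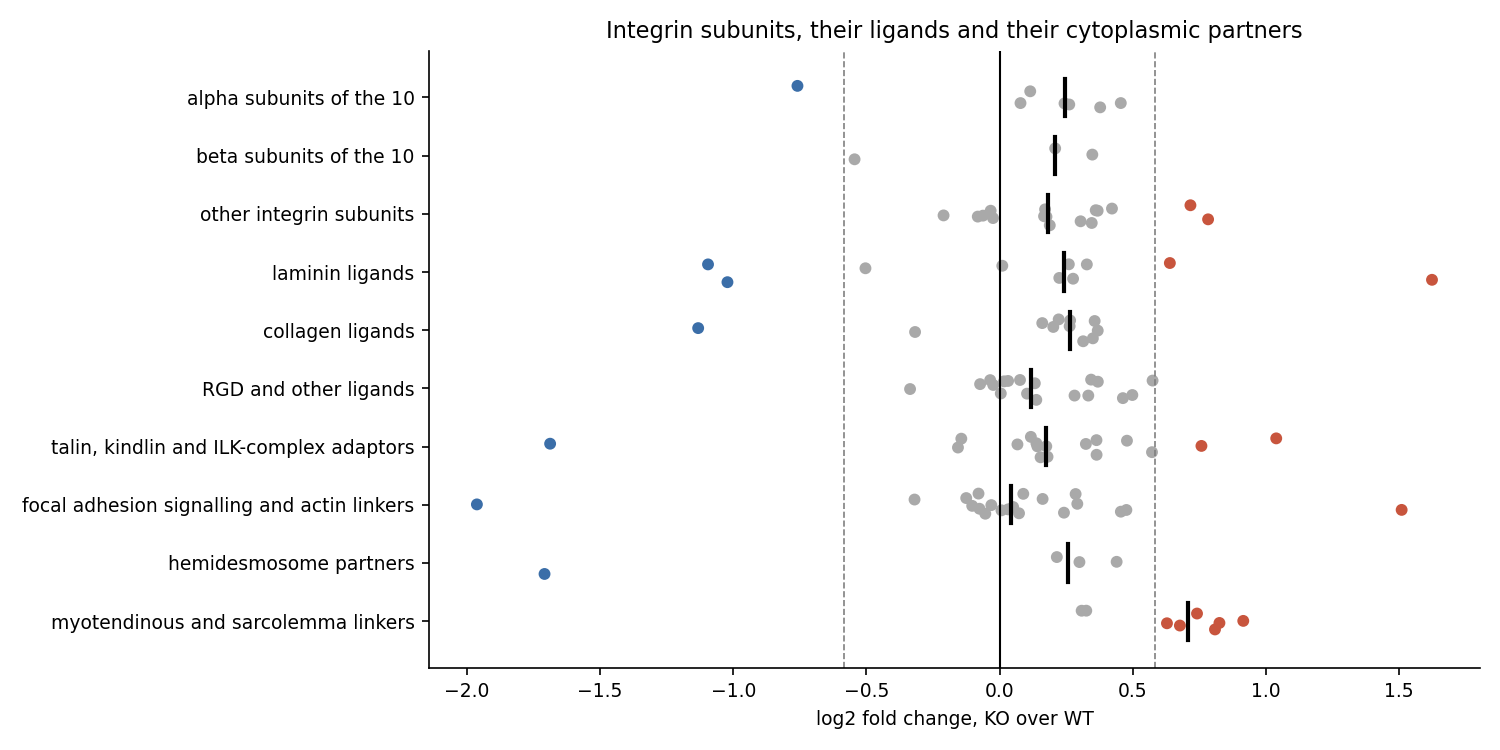
Log2 fold change of KO over WT for every tested gene of the integrin subunits, their ligands and their cytoplasmic partners (points, spread vertically at random; red called higher, blue called lower, grey not called), with list medians as black lines and the 1.5-fold threshold dashed. The myotendinous and sarcolemma linkers lie wholly above 0.3, and the blue points are those of Itga3, Lama1, Lamb3, Col4a6, Fermt1, Tns4 and Col17a1.

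The genes whose log2 CPM followed *Itga3* most closely over the 6 samples were *Mta2* (Pearson r = 0.9995), *March3* (0.9989) and *Bicdl1* (0.9986), among 12370 genes with a mean of at least 5 CPM. The 6 samples fall into 2 genotype groups, and the log2 fold changes of the 3 genes, -0.26, -1.71 and -1.08, were of different size. Some members share their interval with other genes, and whether the counting used strand is not stated. *Gm49395* shares 685 exon bases with *Itga1* and had 14 to 41 counts per library, against 4226 to 6575 for *Itga1*. *Mettl7b* shares 9 bases with the opposite strand of *Itga7* and had at most 20 counts, and *Gm13684* shares 634 bases with *Itgav* and had at most 6 counts. *B230344G16Rik* shares 537 exon bases with the opposite strand of *Itgb4*, has no row in the count table, and reads from it cannot be told from those of *Itgb4*.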

How the data were processed

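RNA-seq of 3 WT and 3 KO leg muscle samples from embryonic day 18.5 was analysed. The authors trimmed 150 bp paired-end reads with Trim Galore 0.6.6, mapped them to mm10 with HISAT2 2.2.1 and deposited raw counts per gene from featureCounts 2.0.1. Gene annotation and strand setting are not given in the sources used here. Of 56262 identifiers, 55227 were found in GENCODE M21 by Ensembl ID without version.

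Counts were tested in R 4.3.3 with edgeR 4.0.16 (filterByExpr, TMM, quasi-likelihood test on genotype alone). DESeq2 1.42.0 (the authors' tool) and limma-voom 3.58.1, other scalings, filters and thresholds, a replicate block and fits without each of the 6 samples were the alternatives. The tests were checked on simulated data with changes larger than that of any member, so the check does not cover changes of the members' size. CPM uses TMM-scaled totals, and levels per kilobase use the union of a gene's M21 exons. Log2 CPM for the likeness of genes had a prior count of 2. Replicates differed by more than counting noise, at a chi-square per gene averaging 5.21 to 35.6.

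The members and lists were chosen with earlier results of these data known. All 10 members were named, up to 4 called genes and 2 of the highest genes not called in each other adhesion list, the 3 genes most like a called member, and genes on a member's interval. *Tnc*, *Lama3*, *Lama5*, *Cd151*, *Dmd* and *Thbs4* were named beyond this rule. An item of these lists is not reported here and was left out of the lists, but not of the fits.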

Additional observations from a re-analysis of the deposited data

How the results depend on the processing

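The direction of all 10 integrin subunit genes was the same in the 14 other fits. The number called lower, 1, became 2 with library size alone as scaling, 0 with a fold change over 2 and 2 with no fold-change threshold. It ranged from 1 to 2 when each sample was left out in turn, with 2 without WT replicate 1, where Itgb4 passed as well. The number called higher, 0, became 7 with no fold-change threshold. The number that rose at any fold, 7, ranged from 5 to 8. With the replicate number as a replicate block, 0 members were called higher and 1 lower, 5 rose and 2 fell, and Itgb1 and Itgav had adjusted p-values of 0.0533 and 0.0501 (edgeR). Same-numbered WT and KO samples deviated from their group means with correlations of -0.20, -0.13 and 0.047, so the numbers were not taken to pair samples. Of all genes, 774 were called higher and 1269 lower with a fold change over 2, and 4838 were higher and 5098 lower with no fold-change threshold. Without WT replicate 1 the Itga5 to Itgb1 difference in log2 ratio turned to -0.030, within a range of -0.030 to 0.069 over the samples left out. With the longest transcript in place of the exon union, share differences were -1.61 points for Itga3, -2.20 for Itga6, 2.45 for Itga7 and 1.06 for Itga9. Depth limits the lowest genes, such as Itgb2l, which could not be tested.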
